A study of Mus musculus with 3 samples.

Results

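The 10 genes described here encode parts of the smooth muscle contractile machinery, and 1 of them, Actg2, was also found in the epithelium of the caput epididymis. Acta2, Actg2, Myh11, Tagln, Des, Cnn1, Mylk, Lmod1, Synpo2 and Myl9 were taken by name from the 24335 gene symbols of the deposited matrix, and all 10 had a row. They were chosen with the pattern of epithelial Actg2 already known from these data, so their levels are a description and carry no test. The epididymis of untreated wild-type C57BL/6 mice aged 56 days was sampled at its head, the caput, at its body, the corpus, and at its tail, the cauda, and 1 single-cell library was made from each. The labels do not say how many mice gave each library.

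Smooth muscle contracts when calmodulin-bound myosin light chain kinase, encoded by Mylk, phosphorylates the regulatory light chain of myosin, after which myosin filaments pull on filaments of smooth muscle actin. In the epididymis a muscle coat lies around the duct and moves sperm along it, and the vessels have muscle of their own. Principal cells are the main secretory cells of the duct epithelium and are not contractile cells. Acta2 and Actg2 encode the alpha and gamma isoforms of smooth muscle actin, which in mouse are products of separate genes: Actg2 lies on chromosome 6 (GRCm38, chr6:83512905-83536265, minus strand) and Acta2 on chromosome 19 (chr19:34241090-34255590, minus strand). None of the 451 stretches of 50 bases in the last 500 bases of the Actg2 transcript was found in a transcript of another gene, and the same held for each of the other members, so in that window reads of that length would name 1 gene.

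Smooth muscle genes are known targets of serum response factor, which binds CArG boxes, a pair of C, 6 A or T bases and a pair of G. RefSeq promoters (GRCm38.p6) were on hand for 7 of the 10 members, not for Actg2, Myh11 or Tagln. On the sense strand of the 250 bases before the start, an exact CArG box stood in 1 of the 7, Myl9, against 482 of 32851 promoters (1.47%). This motif reads the same way on both strands. After that search had been seen, 1 other base was allowed among the 6, and a match stood in 2 of 7, Acta2 and Myl9, and in 8.59% of all promoters. Both promoters are shown because they alone held a match. Acta2 and Myl9 had much the same pattern over cell classes, as described below. Lmod1, Mylk and Cnn1 shared that pattern, and their promoters held no match. Capitals mark the matches, which begin 84 and 34 bases before the start in Acta2 (chr19:34255374-34255623, minus strand) and 161 and 99 bases before it in Myl9 (chr2:156775214-156775463, plus strand). By the gene position given above, most of the Acta2 window and both its matches lie inside the Acta2 gene. The Myl9 window also reaches into its gene, which begins at 156775420, but its matches lie before that base. Only the match 161 bases before the start of Myl9 is exact, and a match of letters shows no binding.
Acta2: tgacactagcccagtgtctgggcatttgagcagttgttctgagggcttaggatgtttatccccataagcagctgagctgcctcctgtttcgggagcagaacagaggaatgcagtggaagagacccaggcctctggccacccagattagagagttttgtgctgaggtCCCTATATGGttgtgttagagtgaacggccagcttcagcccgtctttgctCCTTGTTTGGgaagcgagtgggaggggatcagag
Myl9: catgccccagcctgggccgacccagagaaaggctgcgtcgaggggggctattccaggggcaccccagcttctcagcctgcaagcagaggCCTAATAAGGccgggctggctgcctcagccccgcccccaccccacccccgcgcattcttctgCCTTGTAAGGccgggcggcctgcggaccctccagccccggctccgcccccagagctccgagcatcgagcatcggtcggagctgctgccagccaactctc

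Cells with at least 200 detected genes numbered 4939 in caput, 4831 in corpus and 4785 in cauda, with medians of 5077, 2654 and 2198 unique molecular identifiers (UMIs) per cell. Between 14 and 21 barcodes were shared by each pair of libraries. Clustering without the 10 members gave 31 clusters, which were named from marker lists that hold none of the 10. Levels are counts per 1000000 UMIs of the group (CPM), not scaled by transcript length, with exact 95% Poisson intervals in parentheses. Ratios have exact conditional binomial intervals and shares of cells Clopper-Pearson intervals, and all of these cover counting error only. With 1 library a region there was no replicate check, no test was made, and region and library cannot be told apart.

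Clusters 5 and 11 carried the smooth muscle markers in all 3 regions. Cluster 5 was led by Rergl, Map3k7cl and Rgs5 and also carried 6 of 9 pericyte markers, while cluster 11 was led by Itga8, Cldn11 and Igfbp2. For that reason their values are also given by cluster number. After 12 mesothelial cells of cluster 11 (2 corpus and 10 cauda) were taken out, they held 148 caput, 31 corpus and 73 cauda cells, which are called smooth muscle-marker cells below. Of these, 43 cells of cluster 11 (10 corpus and 33 cauda) met no naming rule of their own, with 6 of 14 smooth muscle and 5 of 11 fibroblast markers enriched. Principal-marker cells numbered 1849 in caput (mainly clusters 0, 2, 4 and 16), 1567 in corpus (mainly clusters 17, 21 and 23) and 840 in cauda. Of the last, 794 were cluster 29, which had 7 principal markers enriched but was led by Smpx, Slc7a15 and the neutrophil-list gene S100a8, so its values are also given by number.

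Actg2 was the member whose UMIs lay mostly in caput epithelium. In the whole caput library it stood at 1346 CPM, against 3.95 CPM in corpus and 29.97 CPM in cauda. Caput principal-marker cells held 71.7% of the caput Actg2 UMIs and smooth muscle-marker cells 0.808%. In cauda the order was the other way round, with 64.8% of 546 Actg2 UMIs in smooth muscle-marker cells and 4.396% in principal-marker cells. In corpus Actg2 had 84 UMIs in all, 25% of them in germ cells.

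In principal-marker cells Actg2 was at 1919.9 CPM in caput (1901 to 1939, 40010 UMIs), 0.83 CPM in corpus (0.379 to 1.57, 9 UMIs) and 4.89 CPM in cauda (3.13 to 7.27, 24 UMIs). The caput level was 2314 times the corpus level (1219 to 5061) and 393 times the cauda level (264 to 613). Under other clusterings and cell choices the first ratio lay between 1201 and 2423 and the second between 303 and 959.7. By cluster number, Actg2 was at 3277 CPM in caput cluster 0, at 1.36 and 0.754 CPM in corpus clusters 17 and 23, and at 5.08 CPM in cauda cluster 29, and corpus cluster 21 held 0 Actg2 UMIs.

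The size rule used here asks for a ratio of 4 or more, an interval beyond 2, and 100 or more UMIs in the higher sum. Between caput and corpus principal-marker cells, 5 of the 10 members had enough UMIs, and 2 passed with a higher level in caput, Actg2 and Myh11, while 7.02% of 9527 genes did so, and 0 members were higher in corpus, beside 4.3% of genes. Against cauda 1 of 5 passed, Actg2, beside 7.96% of 9369 genes, and 0 were higher in cauda, beside 4.19%. Between corpus and cauda 0 of 2 members passed, beside 3.25% of genes higher in corpus and 2.24% higher in cauda. The members had been chosen on these values, so nothing is read from the counts. Myh11, the smooth muscle myosin heavy chain, was at 6.53 CPM in caput principal-marker cells, 1.47 in corpus and 9.16 in cauda, so its caput level lay between those of the other regions.

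Within the caput epithelium Actg2 was concentrated in cluster 0, the 1046 cells led by Cst12, Adam28 and Krt23. That cluster held 62.6% of the caput Actg2 UMIs but 25.7% of all caput UMIs. Dividing principal cells (cluster 16, led by Cenpf and Hmmr) had 2598 CPM of Actg2. The 2 other caput principal clusters were far lower, with 161 CPM in cluster 2 (led by Ntsr2, Rnase13 and Lcn5) and 101 CPM in cluster 4 (led by Lypd8 and Ppy). Against all other caput principal-marker cells, Actg2 was 6.59 times higher in cluster 0 (6.40 to 6.79), 1 of 4 members with enough UMIs to pass, beside 2.13% of 7753 genes, while 0 members were lower in cluster 0, beside 5.86%. Cluster 0 was defined on the genes of the same cells, so this too is a description. Per 10000 UMIs the median cell of cluster 0 had 31.7 Actg2 UMIs, with a middle range of 23.7 to 37.6, and 6 of the 1046 cells had none, while 861 had no Acta2 UMI.

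Unnamed caput clusters also held Actg2. Cluster 7, 148 cells with both principal and clear cell markers and a median of 11755.5 UMIs, had 2333 CPM, and cluster 6, 714 cells with principal and haemoglobin markers, had 571 CPM. Whether cells of these clusters are doublets was not tested, and no doublet caller was run.

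At equal depth the split was plain. With each cell thinned to 1000 UMIs, 93.0% of cluster 0 cells (91.3 to 94.5), 88.8% of cluster 16 and 81.1% of cluster 7 had an Actg2 UMI. In caput clear cells (cluster 1), acid-secreting cells taken here as the level to be seen in cells of another type, the share was 24.2% (20.9 to 27.8). Clusters 2 and 4 were below that, at 17.4% and 15.8%, with an interval of 13.7 to 21.7 in cluster 2 that overlaps that of clear cells, so Actg2 there was not above the level in another cell type. Without thinning, the shares were 99.4% in cluster 0 and 60% in clear cells, with median depths of 7251 and 3562.5 UMIs. For Acta2 the thinned share was 3.44% in cluster 0, and 95.1% and 93.1% in the caput cells of clusters 5 and 11.

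**Figure D1:**
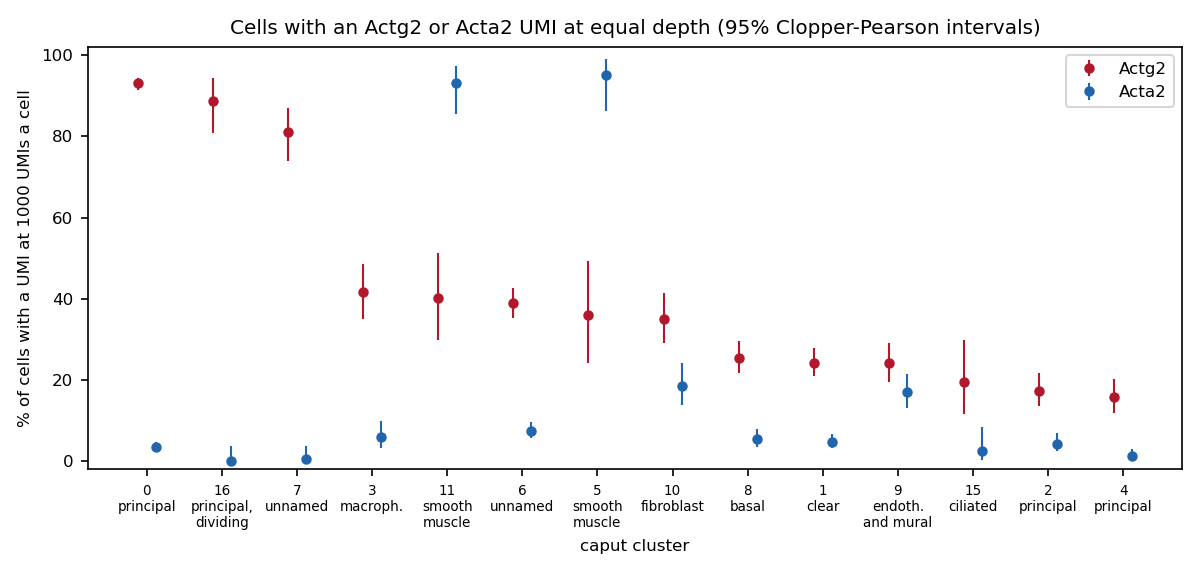
Share of caput cells with at least 1 Actg2 (red) or Acta2 (blue) UMI after each cell was thinned to 1000 UMIs, for the 14 caput clusters with at least 50 cells. Points are shares in percent and bars 95% Clopper-Pearson intervals. Actg2 was found in 93.0% of cluster 0 and Acta2 in 3.44%, while in clusters 5 and 11 Acta2 was found in 95.1% and 93.1%.

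Actg2 UMIs were present in every caput class, at 281 CPM in fibroblasts, 290.1 CPM in clear cells, 520.2 CPM in basal cells, 549 CPM in endothelial cells and 1562 CPM in macrophages. The principal cell gene Cst12, a cystatin that led cluster 0, was counted in the same cells for comparison, a choice made after values had been seen. Over the 14 caput clusters with at least 50 cells, Actg2 spanned 101 to 3277 CPM, and the number of Actg2 UMIs per Cst12 UMI spanned 0.7 to 1.89 with a median of 1.004. Cluster 0 itself had 0.993 Actg2 UMIs per Cst12 UMI (0.979 to 1.01). In caput fibroblasts there were 1.13 Actg2 UMIs per Cst12 UMI (0.926 to 1.37), in basal cells (cluster 8) 1.01 and in clear cells (cluster 1) 1.24. Of the 13 other clusters, 5 had an interval that held the cluster 0 ratio, 6 lay above it and 2 below. The ratio thus varied beyond counting error, though by far less than the level of Actg2, and how much of the Actg2 in these other cell types was made by them was not tested. The caput macrophages of cluster 3 also had 8 of the 24 principal markers enriched. A subgroup of 77 caput endothelial cells had 10 of them enriched and held 859 of the 1098 endothelial Actg2 UMIs at 1309 CPM. The other 187 caput endothelial cells had Actg2 at 178 CPM (156 to 202).

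Caput smooth muscle-marker cells had 0.998 Actg2 UMIs per Cst12 UMI (0.874 to 1.14). That value rested on a subgroup of 20 cluster 5 cells with 11 of 24 principal markers enriched, which held 177 of the 451 Actg2 UMIs at 1663 CPM. Without them, a choice made after values had been seen, the ratio was 1.76 (1.44 to 2.15) and the Actg2 level 509 CPM (450.2 to 573). The 2 clusters differed, with 0.7 in cluster 5 (0.588 to 0.832), or 1.81 without the 20 cells (1.11 to 3.02), and 1.74 in cluster 11 (1.40 to 2.18). Taking off the Cst12 level at the cluster 0 ratio left 286 of the 663 CPM of Actg2 in cluster 11 and nothing in cluster 5 with all its cells. With Adam28 or Lcn9 in place of Cst12, 299.9 and 220 CPM were left in cluster 11, and 88 CPM and nothing in cluster 5. The Cst12 ratio of 1.74 lies inside the span of the 14 clusters, in which ciliated cells (cluster 15) reached 1.89. Per Adam28 UMI and per Lcn9 UMI, cluster 11 had the most Actg2 of the 14 clusters, at 0.818 and 0.199. Ciliated cells had 0.417 and 0.107.

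**Figure D2:**
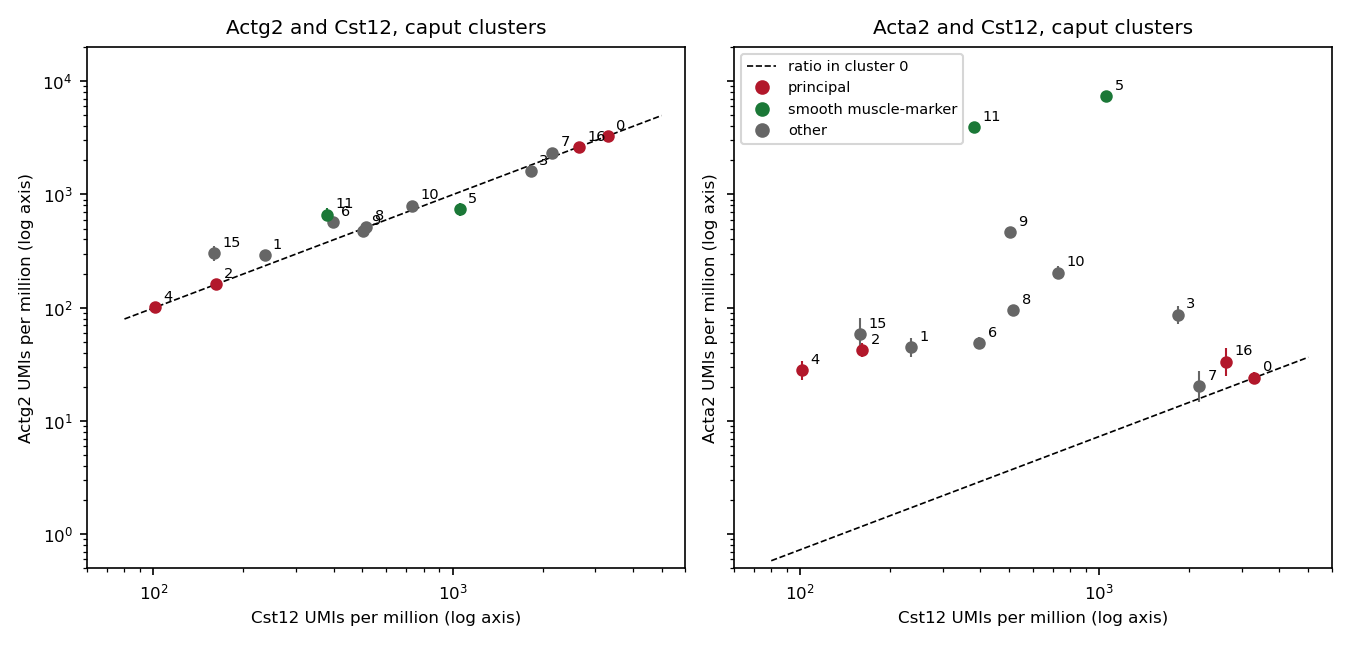
Level of Actg2 (left) and Acta2 (right) against that of Cst12 in the 14 caput clusters with at least 50 cells, in CPM on log axes, with 95% Poisson intervals and cluster numbers. The dashed line is the ratio to Cst12 in cluster 0, and Actg2 stays near it from 101 to 3277 CPM. Acta2 stands above its line in all the other clusters, and farthest above it in clusters 5 and 11.

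The other actins set the scale of this. For every Acta2 UMI there were 136 Actg2 UMIs in cluster 0 (120.3 to 154), 64.7 in all caput principal-marker cells, 0.126 in caput smooth muscle-marker cells and 0.164 in cauda smooth muscle-marker cells. Actb and Actg1, the cytoplasmic actins of all cells, were at 2960.5 and 432 CPM in caput principal-marker cells, 3441 and 476 CPM in corpus and 2609 and 367 CPM in cauda, so neither showed the regional contrast of Actg2.

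Acta2, the alpha actin of smooth muscle, was highest in smooth muscle-marker cells in each region, at 5563 CPM in caput (5383 to 5748), 7059 in corpus (6477 to 7679) and 7406 in cauda (7097 to 7726). In principal-marker cells Acta2 was at 29.7, 21.4 and 29.5 CPM. Smooth muscle-marker cells held 53.8% of the caput, 33.4% of the corpus and 60.5% of the cauda Acta2 UMIs, with 1.56%, 0.361% and 1.59% of the UMIs of these libraries.

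The motor proteins had the same pattern. Myh11 was at 1353, 2123 and 2815 CPM in smooth muscle-marker cells of caput, corpus and cauda. Myl9, the regulatory light chain of myosin, was at 2280.2, 3347 and 3872 CPM in them, and at 11.2, 5.99 and 18.1 CPM in principal-marker cells. Per Acta2 UMI, caput principal-marker cells held 0.22 Myh11 UMIs (0.181 to 0.265) and 0.377 Myl9 UMIs (0.323 to 0.439), and caput smooth muscle-marker cells 0.243 (0.226 to 0.262) and 0.41 (0.385 to 0.436). These intervals overlap. In corpus they did not, with 0.069 Myh11 UMIs (0.0388 to 0.114) and 0.28 Myl9 UMIs (0.209 to 0.37) per Acta2 UMI in principal-marker cells against 0.301 (0.251 to 0.359) and 0.474 (0.407 to 0.551) in smooth muscle-marker cells. In cauda they overlap, at 0.31 (0.217 to 0.436) and 0.614 (0.466 to 0.805) against 0.38 (0.35 to 0.412) and 0.523 (0.486 to 0.562). Mylk differed in caput, at 0.684 (0.603 to 0.776) in principal-marker and 0.151 (0.137 to 0.165) in smooth muscle-marker cells. The caput intervals of Tagln, Des, Cnn1, Lmod1 and Synpo2 overlap. The thinned share of cluster 0 cells with an Acta2 UMI, 3.44% (2.42 to 4.74), was not above that of caput clear cells, 4.68% (3.16 to 6.66).

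Mylk had the lowest caput ratio of smooth muscle-marker to principal-marker cells of the other 9. Its level in smooth muscle-marker cells was 839, 1602 and 2788 CPM in caput, corpus and cauda, and in principal-marker cells 20.3, 27.9 and 37.3 CPM. In caput that is 41.3 times as high in smooth muscle-marker as in principal-marker cells (36.3 to 47.0), against 168 to 239 times for Acta2, Myh11, Tagln, Des, Cnn1, Lmod1 and Myl9. Fibroblasts held the most corpus Mylk UMIs, 33.5%, little more than the 32.1% in principal-marker cells, which held 51.0% of all corpus UMIs. Fibroblast cluster 25 had Mylk at 305 CPM in corpus and 201 CPM in cauda.

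Calponin 1 (Cnn1) and transgelin (Tagln) bind actin, and leiomodin 1 (Lmod1) nucleates actin filaments. Over caput, corpus and cauda smooth muscle-marker cells, Cnn1 was at 367, 313 and 1180.5 CPM, Tagln at 212, 443 and 657 CPM and Lmod1 at 274, 429.8 and 399 CPM. In principal-marker cells these genes stood between 0.0922 CPM and 4.48 CPM, both for Cnn1, in corpus (1 UMI) and in cauda.

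Desmin (Des), an intermediate filament protein of muscle, was at 228, 378 and 499 CPM in smooth muscle-marker cells of caput, corpus and cauda. These cells held 38.7%, 15.3% and 22.8% of the Des UMIs of the 3 libraries, so most lay elsewhere in each region. Fibroblasts held 55.8% of the corpus and 53.7% of the cauda Des UMIs, at 46.1 and 51.8 CPM. Synpo2, an actin-binding protein of the Z disc, had 48, 24 and 88 UMIs in the 3 libraries and stood at 34.1, 91.2 and 176 CPM in smooth muscle-marker cells.

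Levels were then ranked over groups of a class and region with at least 50 cells, in which the principal clusters of a region are pooled. Among these, Actg2 had its highest level in the unnamed caput cluster 7 (2333 CPM), above caput principal-marker cells (1919.9 CPM). Taken by number, caput clusters 0 and 16 were higher than cluster 7, at 3277 and 2598 CPM. The other 9 of the 10 members had their highest level in smooth muscle-marker cells. With genes not scaled before clustering this count was 1 of 10. The groups with most Acta2 then had 40, 38 and 23 cells, under the minimum, and the next was an unnamed group of 64 caput cells. By the size rule 8 of 9 members with enough UMIs were higher in smooth muscle-marker than in principal-marker cells of caput, beside 1.92% of 9247 genes. The exception was Actg2, at 0.364 times the principal level (0.331 to 0.4), or 0.265 without the 20 cells (0.234 to 0.298), which missed the rule in the other direction, where 1.64% of genes passed. In cauda 9 of 9 passed, beside 2.58% of 4802 genes and 0 the other way, beside 5.98%, and Actg2 was 249 times higher in smooth muscle-marker cells (165 to 394). In corpus, with 31 smooth muscle-marker cells, 4 of 4 passed (Acta2, Myh11, Mylk and Myl9), beside 0.24% of 7093 genes and 0 the other way, beside 1.71%. Medians of the log2 ratio over the members with enough UMIs were 7.67 in caput and 7.96 in cauda, beside 0.14 and 0.03 over all genes tested.

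**Figure D3:**
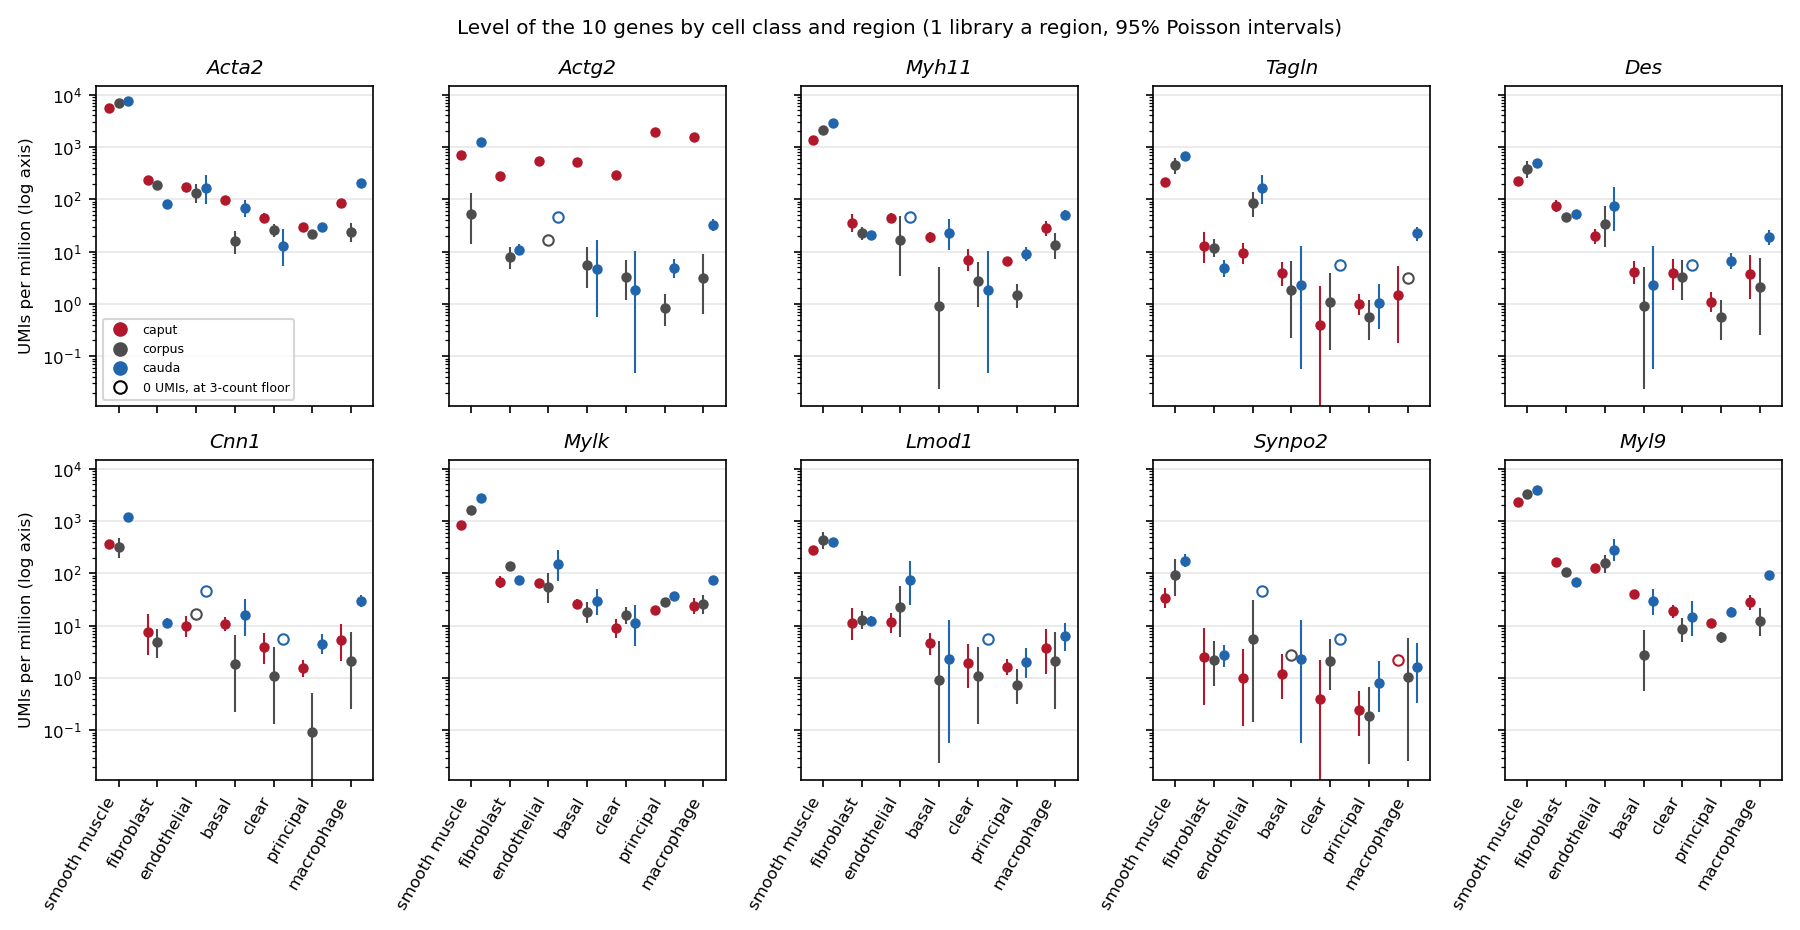
Level of each of the 10 genes in 7 cell classes of caput (red), corpus (grey) and cauda (blue), in CPM on a log axis, with 95% Poisson intervals, and open points at a floor of 3 counts where a group had 0 UMIs. In all panels but that of Actg2 the smooth muscle-marker cells are highest, while the caput points of Actg2 are at 281 CPM or more in every class.

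Between caput and cauda smooth muscle-marker cells 0 of 9 members passed the size rule, beside 6.62% of 1117 genes higher in caput and 2.6% higher in cauda. All 10 members had the higher level in cauda, by 1.33 times for Acta2 (1.26 to 1.4) up to 3.32 times for Mylk (2.98 to 3.71) among those 9, and by 5.15 times for Synpo2 on 51 against 22 UMIs. Much of this lay in 13 cauda cells of cluster 11. Without them 8 of 10 still had the higher level in cauda, by 1.1 times for Acta2 (1.04 to 1.17) and 1.64 for Mylk (1.42 to 1.89), but for Myh11, Des and Lmod1 the interval then held 1, while Cnn1 was at 0.401 and Actg2 at 0.118 times the caput level. Of the 60 cauda cells then left, 33 were of the group that met no naming rule. Acta2 UMIs were in 44 of the 60, against 145 of 148 caput cells, and 1 cauda cell held 401 of 1417. For Mylk 1 cauda cell held 95 of 318 UMIs. The caput Actg2 count of 451 included 177 UMIs of 20 cluster 5 cells with principal markers enriched. These ratios thus do not compare like groups of cells.

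Those 13 cells, set apart after their values had been seen, were led by Acta1, Pcp4, Ckm and Tpm2. Acta1, the skeletal muscle actin, had 173 UMIs in 6 of them and 0 UMIs in the other 60 cauda smooth muscle-marker cells. Actg2 was at 5632 CPM in the 13 cells (5045 to 6269), with UMIs in 12, and 147 of its 335 UMIs were in 1 cell. In the other cauda cells of cluster 11 Actg2 was at 97.3 CPM (12 UMIs in 37 cells), and in cauda cluster 5 at 64.9 CPM (7 UMIs in 23 cells). Of the 37 cells, 33 were of the group that met no naming rule. Nearly all Actg2 UMIs of cauda smooth muscle-marker cells thus came from 13 cells. In these Acta2 was at 12357, Mylk at 8272, Myh11 at 8221, Myl9 at 7095 and Cnn1 at 5195 CPM. Cauda smooth muscle-marker cells held 0 Cst12 UMIs, and the floor of 3 counts would be 10.3 CPM in them.

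Clusters 5 and 11 divided the members. Rgs5, a pericyte and vessel muscle marker, was at 2268, 1109 and 844 CPM in caput, corpus and cauda cells of cluster 5 and had 5, 0 and 0 UMIs in cluster 11. Lmod1 was lower in cluster 11 than in cluster 5 in all 3 regions, at 0.308, 0.178 and 0.347 times its level. Acta2 was also lower, at 0.526, 0.527 and 0.422 times, and so was Myl9. Without the 13 cells the cauda ratios of Lmod1, Acta2 and Myl9 were lower still, at 0.0958, 0.114 and 0.206. Of the 37 cauda cells of cluster 11 then left, 33 had met no naming rule, with 5 of 11 fibroblast markers enriched in their group. These 33 cells had Acta2 at 995 CPM, with UMIs in 18 of them, so cauda ratios without the 13 cells rest mainly on them. Cnn1 went the other way, with cluster 11 at 2.78 times the cluster 5 level in caput (2.06 to 3.81), 6.46 times in corpus (2.16 to 26) and 12.1 times in cauda (7.31 to 21.3). Without the 13 cells the cauda ratio of Cnn1 was 0.984 (0.474 to 2.06). Actg2 was 29.2 times higher in cluster 11 of cauda (14 to 73.3), and 1.499 times without the 13 cells (0.544 to 4.49). In caput it was at 0.898 times (0.744 to 1.09), and at 2.702 times (1.98 to 3.76) without the 20 cells of cluster 5 that had principal markers enriched. In corpus Actg2 had 4 UMIs in cluster 11 and 0 in cluster 5. By the size rule Actg2 and Cnn1 passed in cauda, 2 of 8 members, beside 5.78% of 294 genes higher in cluster 11, and 0 were higher in cluster 5, beside 6.8%. In caput 0 of 8 passed, beside 3.27% of 612 genes higher in cluster 5 and 4.41% in cluster 11.

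**Figure D4:**
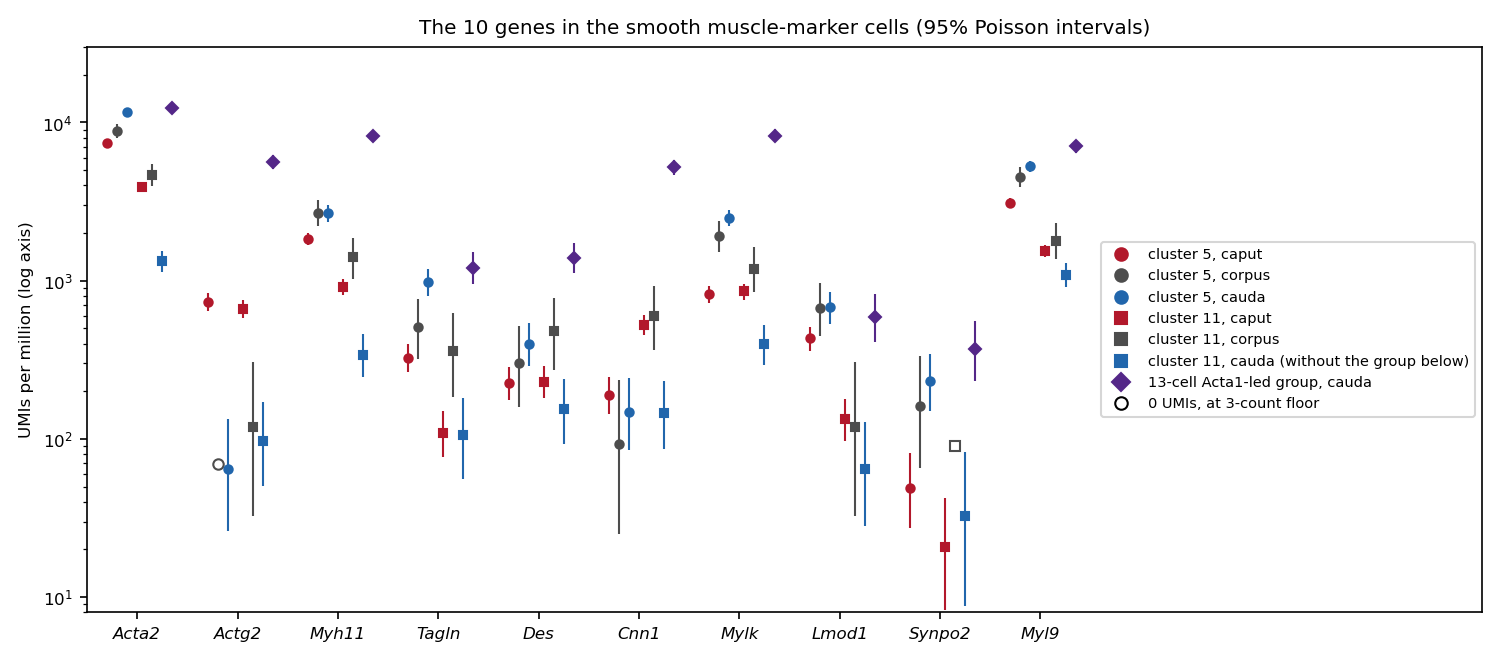
Level of the 10 genes in smooth muscle-marker cells of clusters 5 (circles) and 11 (squares) by region, with the 13-cell Acta1-led group of cauda set apart (purple diamonds), in CPM on a log axis with 95% Poisson intervals. The diamonds of Actg2 and Cnn1, at 5632 and 5195 CPM, are far above all other points of these genes.

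In fibroblasts Actg2 was at 281 CPM in caput (221 UMIs), 7.83 in corpus (18 UMIs) and 10.9 in cauda (72 UMIs). It was the 1 member past the size rule between regions there, of 5 tested against corpus and 6 against cauda, beside 1.52% of 3086 and 1.08% of 6178 genes, and 0 were lower in caput, beside 2.69% and 2.33%. In the same fibroblasts Cst12 was at 249, 0 and 0.304 CPM. Between corpus and cauda fibroblasts 0 of 5 members passed, beside 0.745% of genes higher in corpus and 0.729% in cauda. Acta2 in fibroblasts was at 233, 190 and 82.6 CPM and Myl9 at 168, 107 and 67.3 CPM in the same order of regions.

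Over the 32 groups of a class and region with at least 50 cells, the genes most like Actg2 by Pearson correlation of log2(CPM + 10) were Ddit4l, Mrpl37, Gm17416, Mroh2a, Adam28, Cst8, Rnase10, Elovl4, Emid1 and Cst12, with r from 0.91 to 0.89. Those most like Acta2 were Myh11 and Myl9 (r of 0.97 each), Lmod1, Tpm2, Mustn1, Tagln, Mylk, Tpm1, Map3k20 and Cnn1 (0.88), 6 of them members, and Des came 16th. Between Acta2 and Actg2 r was 0.44, which placed Acta2 1078th for Actg2 among 9829 genes with at least 500 UMIs. The groups share libraries and depth, and Synpo2 was below the minimum.

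Of 87 other genes of the contractile pathway, listed with earlier results of these data known, 79 were in the matrix. Between caput and corpus principal-marker cells 47 had enough UMIs, 3 were higher in caput and 0 in corpus, beside 7.02% and 4.3% of all genes, with a median log2 ratio of 0.25 beside 0.09 over all genes. Oxtr, the oxytocin receptor, was at 15.8, 0.645 and 0 CPM in caput, corpus and cauda principal-marker cells, 24.5 times higher in caput than corpus (11.7 to 61.3). With the 0 cauda UMIs set to a floor of 3, Oxtr was 25.8 times higher in caput than in cauda, a value that is not a lower limit. It had 2 UMIs in caput smooth muscle-marker cells and 0 in the others. Pdlim7, which links kinases to actin filaments, was at 14.2, 1.11 and 5.5 CPM in the same order, and at 55.8 to 209.9 CPM in smooth muscle-marker cells.

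Against cauda 49 pathway genes had enough UMIs. Of these, 2 were higher in caput, Oxtr among them, beside 7.96% of genes, and 4 were higher in cauda, beside 4.19% of genes. Chrm3, a muscarinic acetylcholine receptor, had 1 UMI in caput and 100 in cauda principal-marker cells (20.4 CPM). Myh14, a nonmuscle myosin chain, was at 1.06 and 26.3 CPM, Vim, the intermediate filament vimentin, at 21.9 and 101.2 CPM, and Itpr1, a calcium release channel, at 4.41 and 26.7 CPM.

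Apart from Vim, the genes named here as the most abundant of each group did not pass the size rule against caput in either region. In caput, corpus and cauda principal-marker cells Calm2, a calmodulin gene, was at 362, 480.4 and 394 CPM, Tpm3 at 502, 324 and 275 CPM, Tagln2 at 234, 360.2 and 296 CPM, Myl12b at 413, 282 and 236 CPM and Myl6 at 328, 252 and 248 CPM. Rhoa was at 173, 128 and 128 CPM, Rock1 at 91.5, 90.9 and 79 CPM, Lpp at 48.7, 64.5 and 77.4 CPM, Klf4 at 47.3, 69.1 and 174 CPM and Tead1 at 15.5, 9.86 and 7.13 CPM. Ednrb and Gucy1a3 were low, at 2.5, 2.3 and 5.5 CPM and 1.68, 0.737 and 3.67 CPM. In smooth muscle-marker cells 19 of 51 pathway genes in caput, 5 of 38 in corpus and 19 of 41 in cauda were higher than in principal-marker cells, beside 1.92%, 0.24% and 2.58% of all genes. Tpm1, Tpm2, Cald1, Smtn and Csrp1 were among them in caput and cauda. Tpm2, Smtn, Csrp1 and Synm are also on the marker list that named these cells. Acta1 and Synm, a filament protein, were the 2 of 36 higher in cauda than in caput smooth muscle-marker cells, beside 2.6% of genes. All 173 cauda Acta1 UMIs came from 6 of the 13 cells set apart above.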

How the data were processed

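The authors deposited 1 matrix of UMI counts for 24335 genes in 14845 cells, whose column names give the region. The submitters' processing notes name STAR 2.7.3a, UMI-tools and the build GRCm38.p6, and the labels do not say how cells were called. The members and gene lists were chosen with earlier results of these data known. Cells with at least 200 genes were clustered in scanpy 1.11.5 (2000 variable genes without the members, scaled to unit variance, 30 components, 15 neighbours, Leiden resolution 1.0 in igraph 0.11.9, seed 0), and 9 stromal clusters were split at resolution 0.5. A cluster took the class with most markers (162 of 166 listed were in the matrix) among its 10 leading genes, or else the class with most enriched (at least 2-fold, in 10% of its cells), and was left unnamed with 50% of a second class enriched. Principal cells were judged by number of markers, and groups of clusters 5 and 11 with no name or 2 kept the parent's. These naming thresholds and the scaling of genes were settled after several exploratory clusterings had been seen. Named genes were the members, the 10 genes most like Actg2 and Acta2, pathway genes past the size rule between principal-marker cells, and the 2 pathway genes of each group with most UMIs. UMIs were summed per group, and no test was made. The size rule was checked on simulated counts. No doublet caller was run. TMM factors came from edgeR 4.0.16 in R 4.3.3. Other tools were matplotlib 3.10.9, scipy 1.17.1, numpy 2.4.6, scikit-learn 1.9.0 and Python 3.11.15. Gene positions are those of GENCODE on GRCm38. Some pathway genes that the rule for named genes picks are not reported here.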

Additional observations from a re-analysis of the deposited data

Results flagged for a closer look

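Actg2 in smooth muscle-marker against principal-marker cells went opposite ways in the regions. The log2 ratio was -1.46 in caput, on 451 and 40010 UMIs, 5.97 in corpus, on 4 and 9 UMIs, and 7.96 in cauda, on 354 and 24 UMIs. With 1 library a region the difference was not tested. The other 9 members had a positive log2 ratio in all 3 regions.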

How the results depend on the processing

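The caput over corpus ratio of Actg2 in principal-marker cells, 2314, lay between 1201 and 2423 over 13 alternatives. It left its counting interval in 1, at 1201 with genes not scaled to unit variance, an alternative chosen after seeing the data, as were those that count clusters 6 and 7, or 22, as principal. The caput over cauda ratio, 393, left its interval in 2 of 13, at 869 with the members kept among the variable genes and at 959.7 with principal cells holding Myh11, Tagln or Des UMIs left out (108 caput, 22 corpus and 45 cauda cells). Neither ratio reversed. The share of caput principal-marker cells with an Actg2 UMI, 83.7%, was 81.6% at Leiden resolution 2.0, 80.8% with random seed 1, 81.2% without cells over 20% mitochondrial UMIs, 63.7% at 1000 UMIs a cell and 81.2% with clusters 6 and 7 counted as principal. Actg2 UMIs per Acta2 UMI in these cells, 64.7, were 44.5 at resolution 0.5, 48.5 at resolution 2.0, 56.8 with seed 1, 55.0 with each library clustered on its own, 58.2 without cells under 500 genes, 40.1 with unscaled genes, 103 without cells holding Myh11, Tagln or Des UMIs, 53.3 at 1000 UMIs a cell and 53.0 with clusters 6 and 7. The number of members highest in a smooth muscle or mural class was 9 in 11 of 12 alternatives and 1 with unscaled genes, and the cause was not tested. Scaling factors cannot change a share or a ratio within cells, so TMM gave values for the 2 regional ratios alone. Leaving out the 13 Acta1-led cauda cells, also chosen after seeing the data, turned the cauda over caput ratio in smooth muscle-marker cells from 1.74 to 0.118 for Actg2 and from 3.21 to 0.401 for Cnn1, and the cauda ratio of cluster 11 over cluster 5 from 12.1 to 0.984 for Cnn1 and from 29.2 to 1.499 for Actg2. Of the 60 cauda smooth muscle-marker cells then left, 33 had met no naming rule. Leaving out 20 principal-marked cells of caput cluster 5, a choice of the same kind, turned the caput ratio of cluster 11 over cluster 5 for Actg2 from 0.898 to 2.702 and moved the caput ratio of smooth muscle-marker over principal-marker cells from 0.364 to 0.265. Correlating clusters in place of classes, a choice of the same kind, placed Acta2 1379th for Actg2 (r of 0.40). Allowing 1 other base raised the members with a CArG box from 1 to 2. No paired analysis was possible because each region has 1 library and no replicate number pairs cells or samples. Corpus smooth muscle-marker values rest on 31 cells, and Actg2 in corpus on 84 UMIs.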
